A study of Mus musculus with 4 samples.

Results

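The MHC class I and peptide loading genes of mouse lung were described here by 10 genes, chosen by gene symbol. These were the classical heavy chain genes H2-K1 and H2-D1, the non-classical heavy chain genes H2-Q4, H2-Q7, H2-Q8 and H2-T23, the light chain gene B2m, the peptide transporter gene Tap1 and the immunoproteasome genes Psmb8 and Psmb9. All 10 were found by symbol among the 17780 genes measured, and all 10 had at least 1 FPKM (a level in fragments corrected for the length of the gene and the sequencing depth of its library) in each library. Lung poly(A) RNA was sequenced from C57BL/6 mice (C57BL/6J in the study's methods) in 4 groups, with 1 library per group. Amiodarone, an antiarrhythmic drug with known lung toxicity, was given at 300 mg/kg by mouth, dabigatran etexilate, the oral prodrug of a thrombin inhibitor, at 60 mg/kg, and another group received amiodarone + dabigatran at these same doses. The control mice received the carboxymethylcellulose solution in which both drugs were suspended. All mice were male and 6 to 7 weeks old at purchase, and all were dosed 5 times per week for 28 days according to the sample labels, while the study's methods name day 26 for lung collection. The comparisons asked how each drug alone changed lung gene expression and whether dabigatran changed the effect of amiodarone.

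MHC class I molecules carry short peptides from inside the cell to its surface, where CD8 T cells and natural killer cells read them. The peptides are cut by the proteasome, in which interferon-induced subunits such as those encoded by Psmb8 and Psmb9 can replace the standard ones, and are pumped into the endoplasmic reticulum by the transporter formed by TAP1 and TAP2. There they bind a heavy chain paired with beta-2 microglobulin, the product of B2m. Nearly all nucleated cells make these molecules, and interferons raise the transcription of most of the genes through factors such as IRF1 and NLRC5.

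Each group had 1 library, so that differences between animals could not be tested. Ratios between libraries carry exact 95% Clopper-Pearson intervals from the estimated reads, which cover counting error only, so that a ratio beyond its interval tells libraries apart but not treatments. Total estimated reads ranged from 17498486 to 18903401 per library. The alveolar marker Sftpc, surfactant protein C of type 2 cells, lay between 19587 and 20385 FPKM in all 4 libraries. Not all alveolar markers were that level. With amiodarone against vehicle the 8 listed differed by -0.04 to 0.44 in log2(FPKM + 1), 6 higher and 2 lower, none by 1.5-fold. All 57 markers listed for 10 kinds of lung and blood cells were in the table. In bulk tissue, a change in the number of cells of a type cannot be told apart from a change in RNA per cell.

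In 9 of the 10 genes the libraries had the same order, and how many of all genes had it was not counted. The sequences before the transcription starts of the genes are shown first. They let the genes be compared by the short motifs that interferon and NF-kappaB factors are known to bind. Whether these motifs have a part in the order of the libraries was not tested. The windows came from RefSeq for GRCm38.p6 and held 250 bases before the start, and 9 of the 10 genes matched, all but H2-Q8. Where a gene had several windows the first listed was used, so that positions count from 1 listed start. For H2-K1 and H2-Q7 this start differs from the gene boundary given further below. The H2-K1 stretch shown here lies inside the span of its gene. The motifs searched on both strands were GAAANNGAA (core of the interferon-stimulated response element, ISRE), GGGATTCCC (a kappaB palindrome), TTCNNNGAA (the gamma-activated site, GAS), TGACG (an X2 or CRE-like box) and CCAAT (a Y box), and GAANNGAAA, the mirrored spacing of the ISRE core, was added after the sequences had been seen. Capitals mark matches. The stretches of 4 heavy chain genes on chromosome 17 line up, each ending 1 base after the added ISRE core: H2-K1 on the minus strand at chr17:34000428-34000457, H2-D1 on the plus strand at chr17:35262924-35262953, H2-Q4 on the plus strand at chr17:35379444-35379473 and H2-Q7 on the plus strand at chr17:35439022-35439051.
H2-K1: GGGATTCCCcatctccacagTTTCACTTCt
H2-D1: GGGATTCCCcatctcctcagTTTCACTTCt
H2-Q4: gggatttcccatctccccagTTTCACTTCt
H2-Q7: gGGGATTCCCatctccccagTTTCACTTCt
The kappaB palindrome was present in 3 of the 9 windows (H2-K1, H2-D1 and H2-Q7) against 0.301% of all 32851 promoter windows, and the added ISRE core in 4 of 9 (the 4 genes shown) against 6.31%. H2-Q4 lacked the palindrome by its exact letters. The 4 stretches are close copies of each other, and the added core was chosen after they had been seen. These counts are therefore not of independent windows.

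The planned ISRE core matched in 2 windows, those of H2-T23 and B2m, against 7.13% of all windows. The GAS motif matched in 1, that of Psmb8, against 7.02%. The Y box was present in 8 of 9 windows, all but that of Psmb8, against 33.8%, and the X2 or CRE-like box in 7 of 9, all but those of Psmb8 and H2-T23, against 17.8%. The H2-T23 stretch lies on the minus strand at chr17:36032805-36032834 and holds the ISRE core. The Psmb8 stretch lies on the plus strand at chr17:34198088-34198117 and holds the GAS motif. Tap1 and Psmb9 are transcribed away from each other from the same short intergenic stretch, so that their windows overlap. The stretch at chr17:34187458-34187487, given on the plus strand, holds the X2 or CRE-like box that both windows share. This 1 box is counted for both genes in the 7 of 9. A Y box of the same intergenic stretch also lies in both windows and is counted for both genes in the 8 of 9. Both counts include the heavy chain genes whose stretches are close copies, so they are not of independent windows either.
H2-T23: tcctactgctTTCTCTTTCataaagacaca
Psmb8: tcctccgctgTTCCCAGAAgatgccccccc
Tap1 and Psmb9: cccagagacaggTGACGacagagggtcctg
The whole windows of H2-Q4 (plus strand, chr17:35379367-35379616) and B2m (plus strand, chr2:122147437-122147686) show how the matches are spaced in a heavy chain gene and in the light chain gene. In H2-Q4 the added ISRE core began 153 bases before the start, and the remaining matches lay within the last 79 bases. In B2m the ISRE core began 139 bases before the start, the X2 or CRE-like box 78 and the Y box 53 bases before it.
H2-Q4: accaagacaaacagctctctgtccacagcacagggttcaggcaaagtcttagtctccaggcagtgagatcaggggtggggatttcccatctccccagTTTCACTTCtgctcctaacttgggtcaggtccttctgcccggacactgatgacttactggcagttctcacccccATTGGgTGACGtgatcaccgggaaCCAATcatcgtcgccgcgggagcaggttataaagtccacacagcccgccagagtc
B2m: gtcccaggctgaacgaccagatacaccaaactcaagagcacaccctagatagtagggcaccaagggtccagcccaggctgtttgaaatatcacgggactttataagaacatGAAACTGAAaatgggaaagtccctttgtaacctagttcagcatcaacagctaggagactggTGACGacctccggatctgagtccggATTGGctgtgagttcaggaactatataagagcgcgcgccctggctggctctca
A match describes these letters and is not a measured binding site.

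All 10 genes were higher with amiodarone than with vehicle, by ratios of 1.47 to 2.29, each beyond its counting interval. The share of all genes beyond counting error was not counted in any of the 4 comparisons. With many reads a small difference can also lie beyond counting error. The NF-kappaB subunit gene Rela did so with a ratio of 0.913 (0.869 to 0.959) for amiodarone over vehicle. At 1.5-fold or more on the log2(FPKM + 1) scale, 9 of the 10 were higher, all but H2-Q8, against 4.34% of the 13402 genes that reached 1 FPKM in 1 library or both. At 1.25-fold all 10 were, against 9.42%, and by any amount all 10, against 41.0%. Their median difference in log2(FPKM + 1) was 0.83, beside -0.05 over all genes. With dabigatran added, the genes were still above dabigatran alone, but by less: 9 of 10 were higher, H2-Q8 was lower, and the ratios ran from 0.831 to 1.38. None of the 10 was 1.5-fold higher in that comparison (background 3.25% of 13379 genes), 4 were 1.25-fold higher, namely H2-D1, H2-Q4, H2-T23 and Tap1 (background 7.99%), and 9 were higher by any amount (background 47.1%). The median was 0.27, beside -0.01 over all genes.

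**Figure D1:**
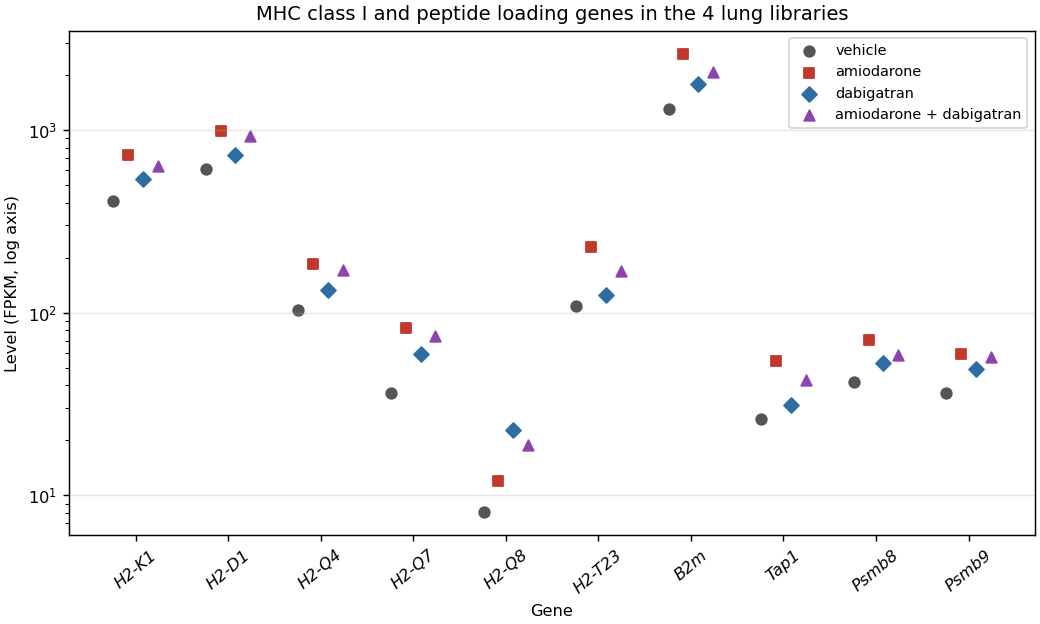
Level of each of the 10 genes in FPKM (log axis) in the vehicle, amiodarone, dabigatran and amiodarone + dabigatran libraries, with 1 point per library and no error bar because each group has 1 library. In 9 genes the points rank amiodarone, amiodarone + dabigatran, dabigatran, vehicle from high to low, and H2-Q8 ranks dabigatran first.

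The classical heavy chains, which present peptides to CD8 T cells, had the highest levels among the heavy chain genes. H2-K1 (gene ID 14972, chromosome 17, 33996012 to 34000619) had 407 FPKM under vehicle, 731 under amiodarone, 539 under dabigatran and 635 under both drugs. Amiodarone was the highest library and vehicle the lowest, and every pair of libraries compared differed beyond counting error. The ratio was 1.80 (1.76 to 1.84) for amiodarone over vehicle and 1.18 (1.15 to 1.2) for the combination over dabigatran. H2-D1 (gene ID 14964, chromosome 17, 35263094 to 35267497) was at 614, 992, 733 and 921 FPKM in the same order of libraries. It had the smallest amiodarone over vehicle ratio after H2-Q8, 1.61 (1.59 to 1.64), and its combination library stood closer to amiodarone than that of H2-K1, with a ratio of 0.929 (0.914 to 0.944) against 0.869 (0.852 to 0.886).

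H2-T23 encodes the heavy chain of Qa-1, a non-classical molecule that is read by the CD94/NKG2A receptor of natural killer cells. Its level (gene ID 15040, chromosome 17, 36029977 to 36032701) was 109 FPKM under vehicle, 229 under amiodarone, 124 under dabigatran and 170 under both drugs. The amiodarone library stood well apart, 2.10 (2.0 to 2.2) times vehicle, while dabigatran alone was only 1.14 (1.08 to 1.2) times vehicle, the smallest dabigatran ratio of the 10 genes. The combination was 0.741 (0.711 to 0.772) times amiodarone, the lowest such ratio of the 10. H2-T23 took 8.52% of the summed FPKM of the 6 heavy chain genes with vehicle and 10.3% with amiodarone, while the share of H2-D1 went from 48.1% to 44.5% and that of H2-K1 stayed between 31.8% and 33.5% in all 4 libraries.

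H2-Q4 is a non-classical heavy chain gene of the Q region, and H2-Q7 and H2-Q8 belong to the group H2-Q6 to H2-Q9 whose products make up the Qa-2 antigen. H2-Q4 (gene ID 15015, chromosome 17, 35379617 to 35384674) was at 104, 184, 133 and 171 FPKM with vehicle, amiodarone, dabigatran and the combination. Its ratios, 1.77 (1.70 to 1.85) for amiodarone over vehicle and 1.28 (1.23 to 1.33) for the combination over dabigatran, lay close to those of H2-K1 and H2-D1. H2-Q7 (gene ID 15018, chromosome 17, 35439140 to 35443773) was at 36.1, 82.5, 59.5 and 74.2 FPKM in that order. It had the largest amiodarone ratio of the 10 genes, 2.29 (2.10 to 2.49), and with dabigatran alone it was 1.65 (1.51 to 1.81) times vehicle.

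H2-Q8 (gene ID 15019) went another way. It had 8.08 FPKM under vehicle (135 estimated reads), 11.9 under amiodarone (213 reads), 22.7 under dabigatran (384 reads) and 18.9 under both drugs (341 reads). The 2 dabigatran libraries were the highest, so that H2-Q8 was 2.81 (2.30 to 3.44) times vehicle with dabigatran alone and 0.831 (0.716 to 0.964) times dabigatran with the combination. H2 genes are close copies, and the division of reads between them is an estimate. None of the 4 read values of H2-D1, H2-Q4, H2-Q7, H2-Q8 and H2-T23 was a whole number (within 0.005 reads), as an estimate is when reads that fit more than 1 gene are divided, whereas B2m, Psmb8 and Psmb9 had whole numbers in all 4 libraries. Of the 50-base windows of the H2-Q7 coding transcripts, 17.9% also occurred in another heavy chain gene and 17.0% in H2-Q6, against 6.87% for H2-K1, 9.84% for H2-T23, 11.03% for H2-D1 and 13.8% for H2-Q4. H2-Q8 and H2-Q9 had no transcripts in this comparison. Windows shared with these genes were therefore not counted, and the true shares may be higher.

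Summed over H2-Q6 to H2-Q9, which is not touched by how reads were divided among these 4, the level in RPM (reads scaled to the library total) was 87.6 under vehicle, 200 under amiodarone, 146 under dabigatran and 191 under both drugs. The sum had the same order of libraries as the other 9 genes, and H2-Q8 held 8.80%, 5.69%, 14.8% and 9.44% of it. The ratio of the sums was 2.28 (2.15 to 2.42) for amiodarone over vehicle, 1.31 (1.24 to 1.38) for the combination over dabigatran and 1.66 (1.56 to 1.77) for dabigatran over vehicle. For the combination over amiodarone it was 0.956 (0.913 to 1.001), so that the 2 highest libraries were not apart beyond counting error. Summed over the 19 heavy chain genes that were both listed and measured, the level was 2221, 3913, 2778 and 3460 RPM. The amiodarone over vehicle ratio of this sum was 1.76 (1.74 to 1.78).

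**Figure D2:**
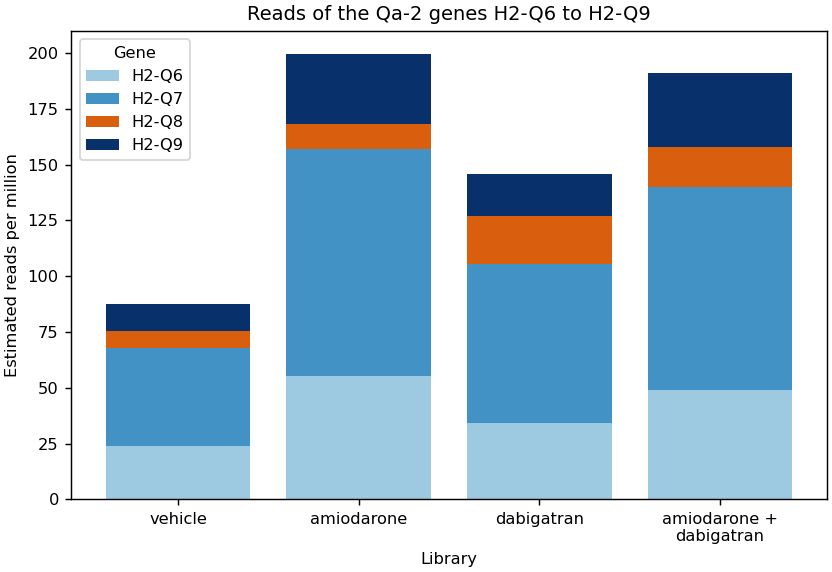
Estimated RPM of the Qa-2 genes H2-Q6, H2-Q7, H2-Q8 and H2-Q9, stacked, in each of the 4 libraries, with 1 bar per library and no error bar. The summed bar is lowest with vehicle (87.6) and highest with amiodarone (200), and the H2-Q8 segment is tallest with dabigatran.

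B2m (gene ID 12010, chromosome 2, 122147687 to 122153082) is the only one of the 10 genes outside chromosome 17, and it was the most abundant. It had 1301 FPKM under vehicle, 2601 under amiodarone, 1786 under dabigatran and 2081 under both drugs. The amiodarone library held 2.0 (1.96 to 2.03) times the vehicle level, and the combination 1.17 (1.15 to 1.18) times the dabigatran level. The level of B2m relative to the summed FPKM of the 6 heavy chain genes was 1.02 (vehicle), 1.17 (amiodarone), 1.11 (dabigatran) and 1.05 (combination), so light and heavy chain levels stayed close to each other. The 10 genes together took 0.325%, 0.593%, 0.419% and 0.509% of all reads in these libraries.

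Tap1 encodes a subunit of the peptide transporter. It (gene ID 21354, chromosome 17, 34187556 to 34197225) had 26.2 FPKM under vehicle, 54.3 under amiodarone, 31.1 under dabigatran and 42.9 under both drugs. Amiodarone gave 2.07 (1.94 to 2.21) times the vehicle level, and the combination 1.38 (1.29 to 1.47) times the dabigatran level, the largest ratio of the 10 genes in that comparison. The gene of its partner subunit, Tap2, moved less, from 44.5 to 55.4 FPKM between vehicle and amiodarone, so that the Tap1 to Tap2 ratio of FPKM was 0.588 (vehicle), 0.980 (amiodarone), 0.629 (dabigatran) and 0.814 (combination).

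Psmb8 and Psmb9 encode catalytic subunits of the immunoproteasome that replace those of Psmb5 and Psmb6. Psmb8 (gene ID 16913, chromosome 17, 34198195 to 34201454) was at 41.7, 71.1, 52.7 and 58.6 FPKM with vehicle, amiodarone, dabigatran and the combination. Psmb9 (gene ID 16912, chromosome 17, 34182030 to 34187330) was at 36.1, 59.1, 49.0 and 56.8 FPKM. In both, vehicle was lowest and amiodarone highest, with amiodarone over vehicle ratios of 1.70 (1.57 to 1.86) for Psmb8 and 1.64 (1.46 to 1.83) for Psmb9. The combination and amiodarone libraries could not be told apart for Psmb9, with a ratio of 0.962 (0.873 to 1.06), the only ratio of the 10 genes in the 4 comparisons whose interval held 1. The FPKM of Psmb8 relative to Psmb5 was 0.612 (vehicle), 1.11 (amiodarone), 0.792 (dabigatran) and 0.834 (combination), and that of Psmb9 relative to Psmb6 was 0.440, 0.743, 0.665 and 0.648.

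**Figure D3:**
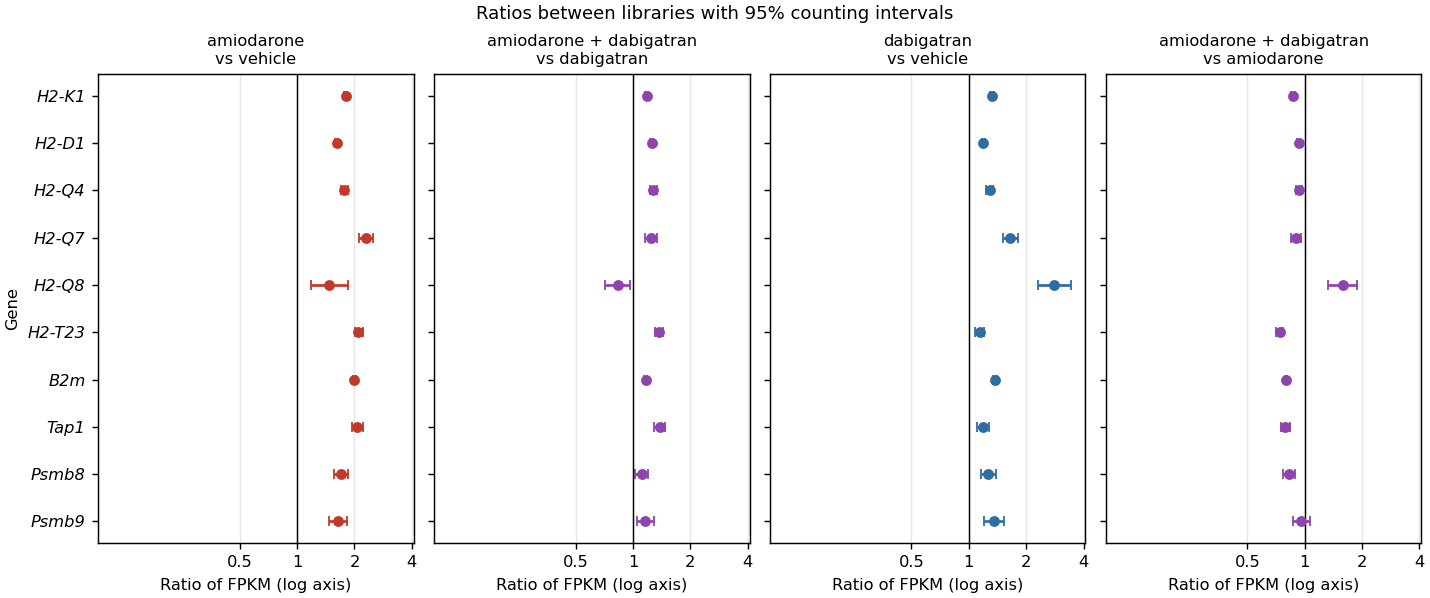
Ratio of FPKM between 2 libraries for each of the 10 genes (log axis) in 4 comparisons, with bars for the 95% Clopper-Pearson interval, which covers counting error only. All 10 points lie right of 1 for amiodarone over vehicle (1.47 to 2.29) and for dabigatran over vehicle (1.14 to 2.81), and 9 lie left of 1 for the combination over amiodarone.

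Dabigatran alone gave higher levels than vehicle in all 10 genes, each beyond counting error, with ratios of 1.14 (H2-T23) to 2.81 (H2-Q8) and a largest ratio of 1.65 without H2-Q8. H2-Q7 and H2-Q8 were at least 1.5-fold higher, against 0.449% of 13373 genes. At 1.25-fold 7 of the 10 were higher, all but H2-D1, H2-T23 and Tap1, against 2.98%, and by any amount all 10, against 50.1%. The median difference in log2(FPKM + 1) was 0.38, beside 0.00 over all genes. B2m was 1.37 (1.35 to 1.40) times vehicle and Psmb9 1.36 (1.21 to 1.53) times vehicle.

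When dabigatran was given with amiodarone, 9 of the 10 genes were lower than with amiodarone alone, 8 of them beyond counting error, and H2-Q8 was higher, 1.58 (1.33 to 1.89) times. None of the 10 was 1.5-fold lower (background 1.22% of 13261 genes), 2 were 1.25-fold lower, H2-T23 and Tap1 (background 4.15%), and 9 were lower by any amount (background 42.0%). The median difference was -0.18, beside 0.03 over all genes. The combination library lay between dabigatran alone and amiodarone alone in all 10 genes, below amiodarone in 9 and above it in H2-Q8. The share of all genes with the combination between these libraries was not counted. B2m was 0.800 (0.788 to 0.812) times and Psmb8 0.825 (0.766 to 0.889) times its level with amiodarone. Every 2 of the 4 comparisons share a library, except amiodarone against vehicle with the combination against dabigatran, and dabigatran against vehicle with the combination against amiodarone.

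The amiodarone difference without dabigatran and that with dabigatran share no library. On the log2(FPKM + 1) scale the former was larger in all 10 genes, by 0.36 to 0.86 with a median of 0.61. The median over all genes was -0.05 without and -0.01 with dabigatran. The share of all genes in which the former was larger was not counted. For H2-Q7, for instance, it was 1.17 without and 0.31 with dabigatran, and for B2m 1.0 and 0.22. H2-D1 was the gene in which the amiodarone difference was most alike in both settings, 0.69 and 0.33. A test of this gap over animals was not possible.

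**Figure D4:**
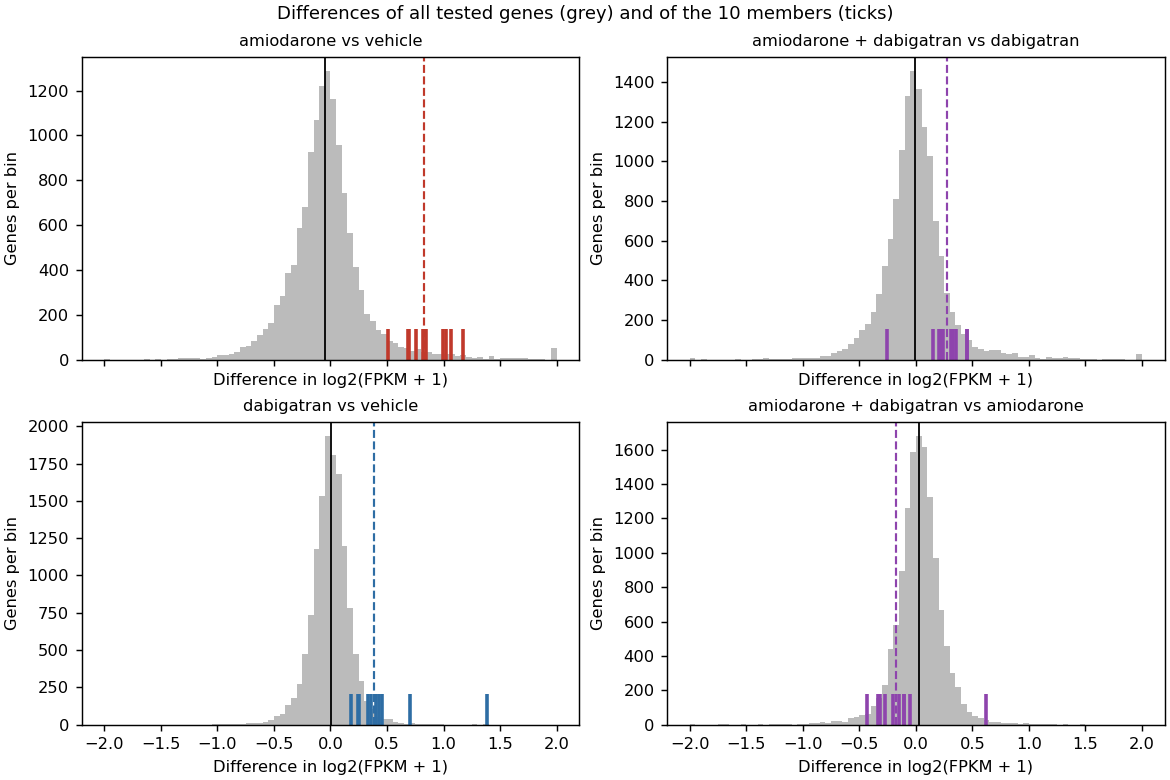
Histograms of the difference in log2(FPKM + 1) over all genes that reached 1 FPKM in 1 library or both (grey, in genes per bin, values beyond 2 drawn at 2) in 4 comparisons, with the 10 genes as coloured ticks, their median as a dashed line and the median of all genes as a solid line. The medians of the 10 genes are 0.83, 0.27, 0.38 and -0.18, and those of all genes lie between -0.05 and 0.03.

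Among the other class I heavy chain genes, 10 of the 13 in the table could be compared between amiodarone and vehicle, and all 10 were higher, 6 of them by 1.5-fold or more, with a median of 0.87. H2-T22, which encodes a ligand of gamma-delta T cell receptors, went from 45.2 to 95.1 FPKM and H2-T24 from 16.1 to 36.4 FPKM. The combination brought H2-T24 to 19.96 FPKM, 0.549 (0.499 to 0.603) times amiodarone. The Qa-2 genes H2-Q6 and H2-Q9 went from 25.7 to 59.8 FPKM and from 8.17 to 21.4 FPKM. H2-Q10, which encodes a soluble class I molecule made mainly by liver, went from 1.65 FPKM (41 reads) to 7.49 FPKM (199 reads) with amiodarone and stood at 1.2 with dabigatran and 4.62 with the combination. H2-M2 went from 0.39 FPKM (10 reads) to 1.22 FPKM (30 reads).

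The other genes of peptide transport and loading, among them Tapbp, which encodes the tapasin that holds heavy chains at the transporter, were all 8 higher with amiodarone, but none by 1.5-fold, and their median was 0.19. Of the other immunoproteasome and activator genes, 3 of 4 were higher and none by 1.5-fold, with a median of 0.38. Psmb10, the gene of the third catalytic immunoproteasome subunit, went from 49.9 to 65.9 FPKM, Psme1 from 122 to 157 FPKM and Psme2 from 80.0 to 107 FPKM, while the assembly factor gene Pomp was at 114 and 113 FPKM. The 14 standard proteasome core genes were level, 5 higher and 9 lower, with differences of -0.19 to 0.11 and a median of -0.01. Class I-like genes outside the H2 region were lower in 5 of 6, with a median of -0.19. Procr, the endothelial protein C receptor, was the only one past 1.5-fold, from 5.19 to 2.67 FPKM (130 and 69 reads).

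**Figure D5:**
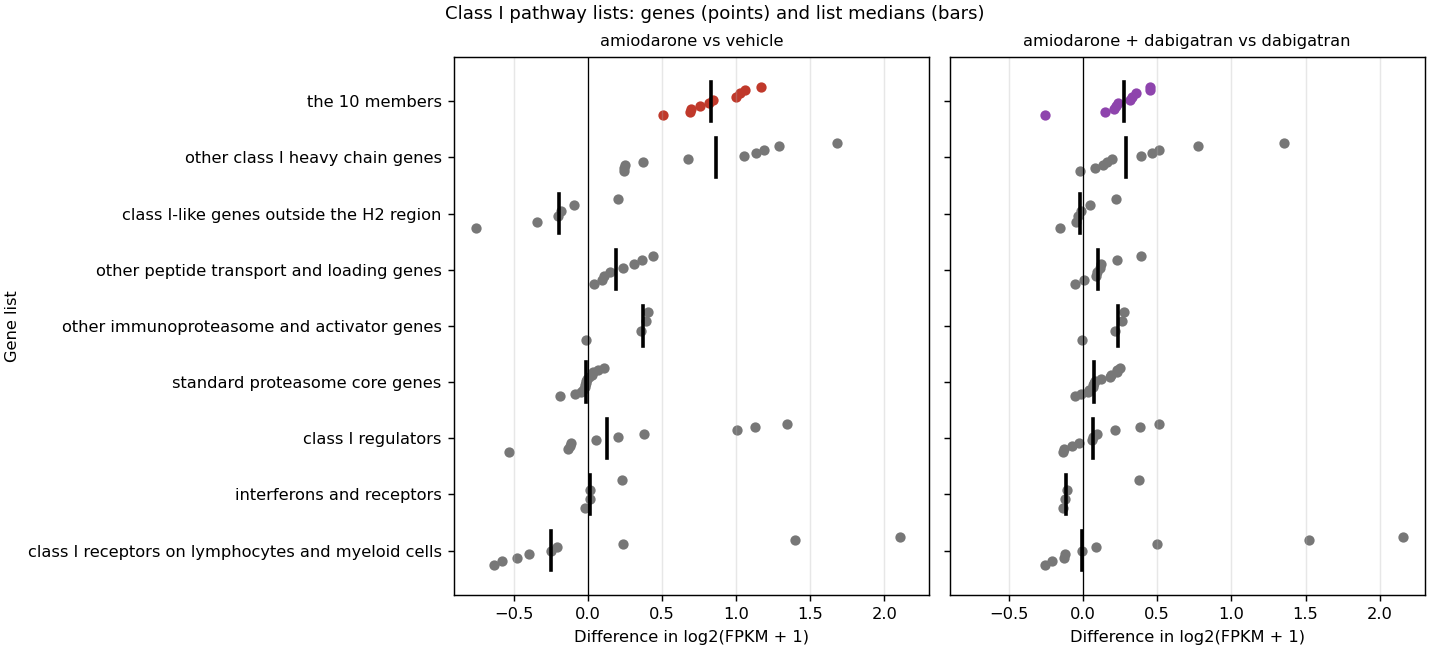
Difference in log2(FPKM + 1) of each gene (points) in the 10 genes and in 8 related lists, with the list median as a bar, for amiodarone against vehicle and for the combination against dabigatran. The other heavy chain genes have a median of 0.87 in the amiodarone panel, near the 0.83 of the 10 genes, while the standard proteasome genes sit around 0.

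Of 10 regulators of class I transcription, amiodarone gave higher levels in 6, among them 3 by 1.5-fold, and lower levels in 4. Nlrc5, the class I transactivator, had 2.78 FPKM under vehicle, 6.59 under amiodarone, 3.5 under dabigatran and 5.4 under both drugs, the same order of libraries as 9 of the 10 genes. Stat2 and Irf9, which encode factors of the type I interferon response, went from 11.3 to 30.3 FPKM and from 22.8 to 51.1 FPKM with amiodarone and stood at 16.6 and 31.9 FPKM with the combination. Irf1 differed less, with 40.6, 53.1, 45.5 and 47.7 FPKM. Rfx5, a subunit of the RFX complex that binds class I and class II promoters, was lower with amiodarone, at 9.74, 6.45, 7.74 and 6.94 FPKM. Nfkb1 and Rela, which encode NF-kappaB subunits, were also lower with amiodarone, from 33.5 to 30.8 FPKM and from 72.3 to 65.99 FPKM. The differences of Irf2, Rfxap and Rfxank were 0.20, 0.06 and -0.11 in log2(FPKM + 1).

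The transcript of interferon gamma itself, Ifng, stayed under 0.5 FPKM, with 2, 5, 6 and 9 reads with vehicle, amiodarone, dabigatran and the combination, too few to order the libraries. The 4 interferon receptor genes compared, Ifngr1, Ifngr2, Ifnar1 and Ifnar2, had a median of 0.01, and none was 1.5-fold apart. Of the 9 lymphocyte and myeloid receptor genes listed, not all of which are known to bind class I molecules, 3 were higher and 6 lower with amiodarone. The myeloid inhibitory receptor genes Pirb and Lilrb4a were higher, from 8.22 to 23.4 FPKM and from 12.6 to 57.4 FPKM, and were at 23.6 and 48.4 FPKM with the combination. Klra8, a natural killer cell receptor gene, was lower, from 4.71 to 2.69 FPKM (89.1 and 54.5 reads), and Cd8a, a coreceptor gene of CD8 T cells, was at 3.25 and 2.05 FPKM, a difference of -0.48 in log2(FPKM + 1) that fell short of the 1.5-fold limit on that scale.

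Markers of other cell types differed between these libraries too. All 6 neutrophil markers were 1.5-fold higher with amiodarone than with vehicle and their summed level was 81.9, 487, 58.9 and 367 FPKM with vehicle, amiodarone, dabigatran and the combination, with S100a8 at 22.4, 141, 16.7 and 99.4 FPKM and the defining Ly6g at 0.07 FPKM (1 read) under vehicle and 1.39 FPKM (22 reads) under amiodarone. Of the 8 macrophage markers all were higher with amiodarone, 5 by 1.5-fold, with Cd68 at 28.6, 77.2, 25.8 and 89.2 FPKM. The summed macrophage level, most of it from Lyz2, was 3488, 5078, 3787 and 4816 FPKM, but 6 of the 8 markers were higher with the combination than with amiodarone, at a median of 0.19, where 9 of the 10 class I genes were lower. All 4 B cell markers were 1.5-fold lower, with a summed level of 162, 55.4, 136 and 98.2 FPKM. Of the 4 pan-leukocyte markers 3 were higher with amiodarone than with vehicle, at a median of 0.32, and 2 of them by 1.5-fold, Laptm5 (from 101 to 157 FPKM) and Cd53 (from 16.3 to 25.3 FPKM), while Ptprc was at 19.2, 19.6, 20.1 and 24.2 FPKM. The 5 fibroblast and 3 airway epithelial markers were also all lower with amiodarone, at medians of -0.41 and -0.70. The part of these cell types in the class I differences was not tested.

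In the comparison of dabigatran with vehicle the neutrophil markers that reached 1 FPKM moved the other way, with 5 of 5 lower, while all 10 class I genes were higher. The share of all genes that were lower was not counted. Ly6g was under 1 FPKM in both libraries and is not among the 5, with 0.07 FPKM (1 read) under vehicle and 0.2 FPKM (3 reads) under dabigatran. Gzma, Nkg7 and Ncr1, markers of natural killer cells, were the T and NK cell markers at 1.5-fold, with Gzma at 24.6 FPKM with vehicle and 44.8 with dabigatran. All 6 endothelial markers were higher with dabigatran than with vehicle, at a median of 0.21, and all 6 lower with the combination than with amiodarone, at a median of -0.23, with Pecam1 at 258, 276, 294 and 238 FPKM. Against dabigatran the combination had all 6 endothelial markers lower, at a median of -0.28, where 9 class I genes were higher, and with amiodarone against vehicle 4 were higher and 2 lower. The part of endothelial cells in the class I differences was not tested.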

How the data were processed

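Poly(A) RNA of lung was sequenced by the study on a DNBSeq platform. The submitters' processing notes name HISAT, Bowtie2 and RSEM and the mouse build GRCm38.p6. For each library the authors deposited an estimated count of reads per gene and a normalized value without a named unit. This value was treated as FPKM, because the deposited values give reads per FPKM that differ between amiodarone and vehicle by 1.07, the same as the ratio of total reads. Another 8 columns with means over libraries were not used. Samples were grouped by the treatment in the labels. The study's methods made no statistical analysis of these data, and none was possible across animals with 1 library per group.

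Differences were taken as log2(FPKM + 1), which understates the change of low genes, over genes that reached 1 FPKM in 1 library or both, and a gene counted as apart at 1.5-fold. Intervals at 95% came from rounded estimated reads, without allowance for the uncertainty of dividing reads between close copies, and sequenced fragments are not independent molecules. A count of 0 allows up to 3 reads. Of the self-written steps, the fold call and the counting interval were tested on simulated data, and the sequence steps were not. The steps used python 3.11.15, numpy 2.4.6, pandas 2.3.3, scipy 1.17.1 and matplotlib 3.10.9. Coordinates and promoters came from RefSeq tables for GRCm38.p6 and shared 50-base windows from GENCODE transcripts, in which H2-Q8 and H2-Q9 were not matched. A planned comparison of protein sequences was not made.

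The 10 genes, the lists, the markers and the tests were chosen with earlier results of these data known. The text names all 10 genes, genes of the related lists that differed at least 1.5-fold between amiodarone and vehicle, the regulators Nlrc5, Irf1 and Rfx5 whatever their value (1 further gene that this rule names is not reported here), and the 5 genes outside all lists most like the 10. Other genes (Tap2, Tapbp, Psmb10, Psme1, Psme2, Pomp, Ifng, Cd8a, Nfkb1, Rela, Irf2, Rfxap, Rfxank, the interferon receptors and the markers) were named after their values were seen. The 1.25-fold and any-amount counts, the sums over H2-Q6 to H2-Q9 and over H2-K1 and H2-D1, the leaving out of H2-Q8 and the mirrored ISRE core were chosen after seeing the data. The alternatives were a pseudocount of 0.1, rescaling by the median ratio, reads scaled to the library total, a 2-fold limit and a minimum of 5 FPKM or none.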

Additional observations from a re-analysis of the deposited data

Results flagged for a closer look

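With 1 library per group none of the following differences between settings was tested. In 9 genes dabigatran stood above vehicle when given alone, but below amiodarone when added to it. This follows from the order of libraries already given for the same 9 genes and is not a separate result. The log2(FPKM + 1) difference of the combination from amiodarone was -0.43 for H2-T23, -0.33 for Tap1, -0.32 for B2m, -0.27 for Psmb8, -0.20 for H2-K1, -0.15 for H2-Q7, -0.11 for H2-D1, -0.11 for H2-Q4 and -0.055 for Psmb9, against 0.19, 0.24, 0.46, 0.33, 0.40, 0.71, 0.25, 0.36 and 0.43 for dabigatran from vehicle. Only the Psmb9 value with amiodarone lay within counting error. H2-Q8 differed between settings in the other contrast, with amiodarone 0.51 above vehicle but the combination -0.26 from dabigatran.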

How the results depend on the processing

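No paired analysis was possible because each group has 1 library, and for the same reason no library could be left out. The median difference of the 10 genes kept its sign in all 4 comparisons under every alternative and ranged from 0.83 to 0.88 for amiodarone against vehicle, 0.27 to 0.31 for the combination against dabigatran, 0.36 to 0.38 for dabigatran against vehicle and -0.21 to -0.18 for the combination against amiodarone. Of 120 single-gene values under alternatives, 120 kept their sign and 114 moved by no more than the counting error, the largest move being 0.095. Counts of genes depended on the limit. At 2-fold, 3 of the 10 were higher with amiodarone than with vehicle (1.87% of all genes) and 1 with dabigatran (0.0897%). At 1.25-fold the counts were 4 for the combination over dabigatran, 7 for dabigatran over vehicle and 2 for the combination below amiodarone, and by any amount 9, 10 and 9. The summed heavy chain ratio moved from 1.74 for amiodarone over vehicle to 2.28 over H2-Q6 to H2-Q9 and 1.68 over H2-K1 and H2-D1. For dabigatran over vehicle it moved from 1.26 to 1.66 and 1.24, for the combination over dabigatran from 1.23 to 1.31 over H2-Q6 to H2-Q9, and for the combination over amiodarone from 0.892 to 0.956 and 0.904. These sums cover different genes by construction, and the measure differs too. The first ratio of each comparison is of summed FPKM and the others are of summed RPM. In FPKM the amiodarone over vehicle ratio was 2.25 over H2-Q6 to H2-Q9 and 1.69 over H2-K1 and H2-D1. Each value rests on 1 library per group, and those of the H2 genes also on the estimated division of reads among close copies. Depth limits H2-Q8 most among the 10 genes, with 135 to 384 reads.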

Other observations

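The genes outside all lists whose differences from vehicle lay closest to the median of the 10 genes in the 3 treated libraries (0.83 for amiodarone, 0.38 for dabigatran and 0.66 for both drugs, on the log2(FPKM + 1) scale) were Mertk, S1pr1, Plat, Dll1 and Hpgd, among genes with at least 10 FPKM in every library. Their largest distance from these medians in any of the 3 libraries was 0.11, 0.13, 0.14, 0.16 and 0.18. Mertk, which encodes a receptor for the uptake of dying cells, had 10.1 FPKM under vehicle, 17.4 under amiodarone, 12.4 under dabigatran and 16.2 under both drugs. S1pr1, a sphingosine-1-phosphate receptor gene of endothelium and lymphocytes, was at 90.1, 163, 107 and 140 FPKM. Plat, the gene of tissue plasminogen activator, was at 15.2, 30.8, 18.2 and 22.8 FPKM, and Dll1, a Notch ligand gene, at 10.6, 21.3, 13.0 and 15.4 FPKM. Hpgd, which encodes the enzyme that inactivates prostaglandins, was at 245, 476, 354 and 342 FPKM, so that its dabigatran library stood above the combination, unlike 9 of the 10 class I genes. The likeness rests on 3 differences that share the vehicle library.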
